A study of Mus musculus with 2 samples.

Results

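The mevalonate branch is the stretch of isoprenoid synthesis that builds farnesyl and geranylgeranyl diphosphate from acetyl-CoA. The genes considered were Acat2, Hmgcs1, Mvk, Pmvk, Mvd, Idi1, Fdps and Ggps1. They were chosen by name as enzymes of these steps, with earlier results of these data known. Of these 8 genes, among 18193 named on the array, 7 had a probe set annotated with their symbol alone, 18 probe sets in all. The expression of Acat2 was not analysed here. The samples were crypts of mouse small intestine from 2 genotypes. The first carried floxed Lpcat3 alleles and Villin-CreERT2, a Cre recombinase that tamoxifen switches on in the intestinal epithelium (Lpcat3 F/F, Villin-CreERT2, called the knockout). The second carried the floxed alleles without Cre (Lpcat3 F/F, called the flox control). All mice were 8 to 10 weeks old, both genotypes received 1 mg of tamoxifen a day for 5 days, and crypts were collected 2 weeks afterwards. Each genotype gave 1 pool, the RNA of 5 mice, and each pool 1 Affymetrix array. There were thus no replicates and no test of genotype, and genotype, Cre, pool and array cannot be told apart.

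Lpcat3 encodes an enzyme that puts polyunsaturated fatty acids into membrane phospholipids. As a check of the labels, its 1 probe set had a signal of 928 on the knockout array, against 4691 on the flox control array, 5.06-fold lower. All 9 epithelial markers examined were above a floor of 92.9, the 50th percentile of signal, on both arrays and none differed by 1.5-fold (summed signal 162148 in knockout, 149112 in flox control). Over all 11496 genes measured, meaning above the floor on either array, the knockout signal was higher by 1.5-fold or more for 4.76% and lower by as much for 8.74%. Set beside these shares, by brightest probe set all 9 T and natural killer cell markers were lower by 1.5-fold or more in the knockout pool (summed signal 8786 in knockout, 42822 in flox control). Of 7 B and plasma cell markers 6 were at least 1.5-fold higher (21362 in knockout, 6024 in flox control). The probe sets of Cd8a ran from -2.03 to 0.33 in log2 ratio and those of Ighm from 0.030 to 1.95, while those of Igha ran from 1.76 to 1.92. The 6 crypt base markers all had lower signal, 3 of them 1.5-fold or more (63661 in knockout, 85018 in flox control), while of 7 enterocyte markers 1 was higher and 1 lower by that much. Of 8 stromal markers, Col1a1, Col3a1, Pdgfra and Pecam1 lay below the floor on both arrays, while Acta2 was 1.69-fold higher and Des at least 1.62-fold lower (summed signal of the 8: 845 in knockout, 917 in flox control). Of 5 myeloid markers Csf1r was 5.77-fold higher by its brightest probe set, though its probe sets ran from 0.65 to 2.53 in log2 ratio. The other 4 myeloid markers lay within 1.5-fold (summed signal of the 5: 3521 in knockout, 3697 in flox control). The part of these cell type differences in the results below was not tested, and in bulk RNA fewer cells of a type and less RNA per cell cannot be told apart.

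As background, the pathway starts in the cytosol when acetyl-CoA units are joined into HMG-CoA, which is reduced to mevalonate. Kinases and a decarboxylase turn mevalonate into isopentenyl diphosphate, the building block of all isoprenoids. These blocks are joined into farnesyl diphosphate, which either goes on to squalene and cholesterol or serves for protein prenylation, dolichol and ubiquinone. The transcription factor SREBP2 switches on genes of the pathway when sterols in the membrane of the endoplasmic reticulum are low, and it acts together with NF-Y, which binds CCAAT boxes, and Sp1, which binds GC boxes. The small intestine is known, beside the liver, as a main site of sterol synthesis in the body.

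The promoter sequences are shown for 4 genes. They were picked from the genes whose signal was at least 1.5-fold higher in the knockout pool and that carry motifs of these factors. Pmvk, which met both conditions, and Ggps1 also hold CCAAT boxes but are not printed. The pairing of signal and motifs in the 4 printed stretches is therefore not a result. Each is the 180 bases before the annotated RefSeq start (GRCm38.p6), read 5′ to 3′ along the gene. Capitals mark TCACNCCAC (the sterol regulatory element searched), the CCAAT box, which reads ATTGG where it lies on the opposite strand, and the GC box CCGCCC, which then reads GGGCGG. No match overlapped another. They come from chr13:119690171-119690350 (plus strand) for Hmgcs1, chr5:114444089-114444268 (plus) for Mvk, chr8:122443423-122443602 (minus) for Mvd and chr13:8885426-8885605 (plus) for Idi1.
Hmgcs1: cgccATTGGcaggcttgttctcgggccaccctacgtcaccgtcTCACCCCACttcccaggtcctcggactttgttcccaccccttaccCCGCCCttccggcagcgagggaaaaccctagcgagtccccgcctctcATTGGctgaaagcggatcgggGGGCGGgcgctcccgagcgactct
Mvk: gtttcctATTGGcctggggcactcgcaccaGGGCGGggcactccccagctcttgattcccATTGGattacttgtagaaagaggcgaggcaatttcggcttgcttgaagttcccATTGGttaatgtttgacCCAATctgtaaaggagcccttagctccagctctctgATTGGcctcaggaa
Mvd: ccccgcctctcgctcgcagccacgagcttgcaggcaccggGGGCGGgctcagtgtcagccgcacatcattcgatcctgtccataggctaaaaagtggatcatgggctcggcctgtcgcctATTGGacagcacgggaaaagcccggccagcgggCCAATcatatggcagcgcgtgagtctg
Idi1: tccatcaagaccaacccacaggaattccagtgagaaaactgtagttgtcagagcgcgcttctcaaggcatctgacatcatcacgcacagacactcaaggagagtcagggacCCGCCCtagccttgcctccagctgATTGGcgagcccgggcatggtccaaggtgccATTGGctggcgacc

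Over windows of 300 bases, 250 before and 50 after the start, 7 of the 8 genes were searched in the RefSeq table, all but Fdps, with 8 windows in all because Pmvk has 2. The sterol regulatory element was found in 1 of the 8 windows, that of Hmgcs1, where it begins 137 bases before the start. Of all 32851 promoter windows 1.24% held it. A CCAAT box on either strand was found in 6 of the 7 genes (Hmgcs1, Mvk, Pmvk, Mvd, Idi1 and Ggps1). By window this was 6 of 8, against 37.4% of all windows. A GC box was found in 5 of the 7 genes (Acat2, Hmgcs1, Mvk, Mvd and Idi1). By window this was 5 of 8, against 35.7% of all windows. A match is a description of the letters in these windows and says nothing of whether a factor binds there. Mvk held 5 CCAAT boxes, Hmgcs1 4, Ggps1 3, Idi1 and Mvd 2 each and Pmvk 1.

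By brightest probe set, signal of the mevalonate branch was higher in the knockout pool for all 7 measured genes, for Ggps1 only within the probe-set error. The other 6, Hmgcs1, Mvk, Pmvk, Mvd, Idi1 and Fdps, were higher by 1.5-fold or more, and Mvd and Fdps, 2 of them, by 2-fold or more. Ggps1, which makes geranylgeranyl diphosphate, was at 0.11 on the log2 scale, within the probe-set error, and its sign changed with the probe set used. Of the 11496 genes measured, 4.76% were at least 1.5-fold higher, 1.41% at least 2-fold higher, 44.9% higher by any amount and 8.74% at least 1.5-fold lower. Among the 7823 genes at least as bright as the dimmest of the 7, 3.86% were at least 1.5-fold higher. The median log2 ratio of the 7 genes was 0.75 (1.68-fold), against -0.042 over all measured genes. Here and below a ratio is log2 of the knockout signal over the flox control signal, and values below the floor were not ordered. The error of a ratio was judged from 4582 genes with at least 2 probe sets of the same symbol above the floor on both arrays. Its SD was 0.28 on the log2 scale (1.21-fold), so a 1.5-fold difference is 2.10 of these SDs. Such probe sets may read different transcripts of a gene or share a sequence, so this SD is not measurement error alone. It holds no information on how mice or pools vary, and having only 2 arrays limits what any single value can show.

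**Figure D1:**
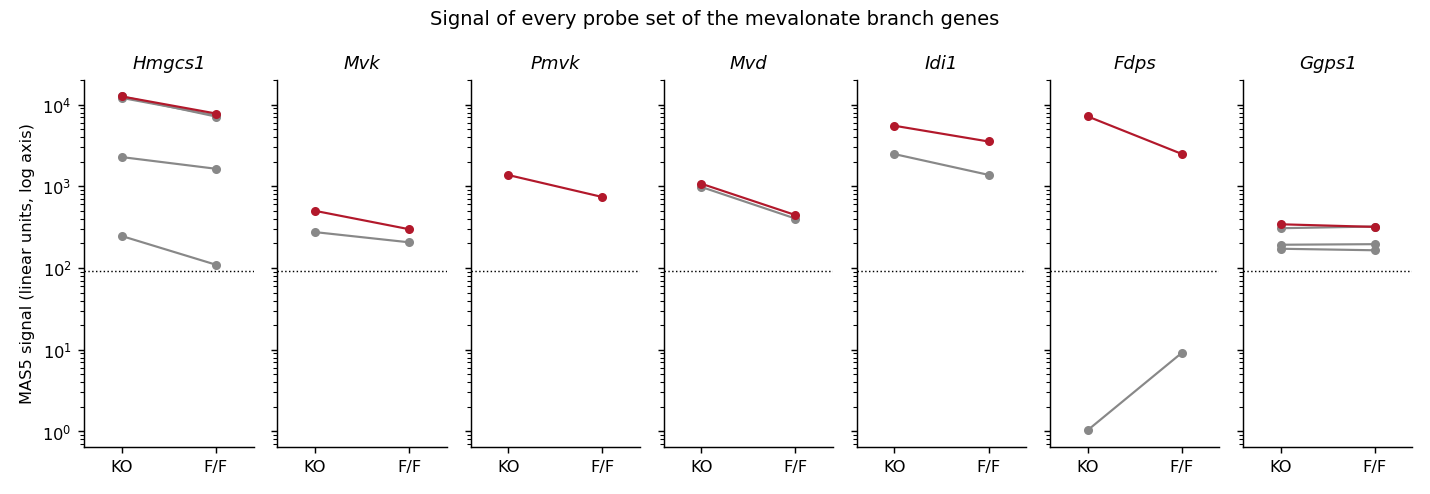
MAS5 signal (log axis) of all 18 probe sets of the 7 genes on the knockout array (KO, left) and the flox control array (F/F, right), each line 1 probe set, red for the brightest of its gene, the dotted line the floor of 92.9. Lines slope down to the flox control for Hmgcs1, Mvk, Pmvk, Mvd, Idi1 and the bright Fdps probe set, and are close to level for the 4 probe sets of Ggps1.

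The first measured enzyme is Hmgcs1, the cytosolic HMG-CoA synthase that joins acetoacetyl-CoA and acetyl-CoA. Its brightest probe set, 1433445_x_at, had a signal of 12576 on the knockout array, against 7779 on the flox control array, a ratio of 0.69 (1.62-fold). Probe set 1433443_a_at read 12589 in the knockout pool and 7136 in the flox control pool, a ratio of 0.82. Probe set 1433444_at read 12065 in the knockout pool and 7386 in the flox control pool, a ratio of 0.71. These bright probe sets, designed on the same expressed sequence, lay within 1 error SD of one another. Probe set 1433446_at was dimmer, with 2278 in the knockout pool and 1639 in the flox control pool, and gave 0.47, below the 1.5-fold mark. Probe set 1441536_at stood near the floor in the flox control pool, with 246 in the knockout pool and 110 in the flox control pool, and gave the highest ratio of the gene, 1.17. Hmgcs1 was thus higher by each of its 5 probe sets, and 4 passed 1.5-fold. By its brightest probe set Hmgcs1, whose promoter is printed above, ranked 378th of 11496 genes.

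Mevalonate is then phosphorylated in succession by mevalonate kinase (Mvk) and phosphomevalonate kinase (Pmvk). Mvk probe set 1418052_at had a signal of 501 in the knockout pool and 299 in the flox control pool, a ratio of 0.75 (1.68-fold). Its other probe set, 1430619_a_at, read 275 in the knockout pool and 206 in the flox control pool, a ratio of 0.41, which is within 2 SDs of the probe-set error. The 1.5-fold count for Mvk therefore rests on 1 of its 2 probe sets. Pmvk was read by 1 probe set, 1427893_a_at, with 1375 in the knockout pool and 740 in the flox control pool, a ratio of 0.89 (1.86-fold). No second probe set was there to compare for Pmvk, which ranked 217th of 11496 genes, and Mvk ranked 326th.

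Mvd, mevalonate diphosphate decarboxylase, makes isopentenyl diphosphate in the last step that consumes ATP in this branch. Its probe set 1448663_s_at had a signal of 1076 in the knockout pool and 445 in the flox control pool, a ratio of 1.27 (2.42-fold). The second, 1417303_at, read 982 in the knockout pool and 403 in the flox control pool, a ratio of 1.28. The closeness of the 2 probe sets, 0.012 apart, was the smallest spread among the 5 genes with several probe sets above the floor, although both were designed on the same transcript record. Mvd ranked 77th, a ratio that 0.670% of measured genes reached or passed.

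Idi1, isopentenyl diphosphate isomerase, converts the block into dimethylallyl diphosphate, the primer of chain growth. Its probe set 1451122_at had a signal of 5508 in the knockout pool and 3535 in the flox control pool, a ratio of 0.64 (1.56-fold). The dimmer 1423804_a_at read 2478 in the knockout pool and 1380 in the flox control pool, a ratio of 0.84. Both passed 1.5-fold, but by its brightest probe set Idi1 was the lowest of the 6 genes that did (rank 452). Its tandem paralog Idi2 lay below the floor on both arrays.

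Fdps and Ggps1 are related prenyltransferases that lengthen the chain, Fdps to farnesyl diphosphate and Ggps1 from there to geranylgeranyl diphosphate. Fdps had a signal of 7171 in the knockout pool and 2493 in the flox control pool by probe set 1423418_at, a ratio of 1.52 (2.88-fold), the highest of the 7 genes and the 47th of 11496. Its other probe set, 1438150_at, read 1.04 in the knockout pool and 9.13 in the flox control pool, below the floor on both arrays, so the Fdps value rests on 1 probe set. Ggps1 differed least. Its probe set 1429356_s_at read 343 in the knockout pool and 319 in the flox control pool, a ratio of 0.11. Probe set 1419506_at read 307 in the knockout pool and 322 in the flox control pool, a ratio of -0.070. Probe set 1419505_a_at read 193 in the knockout pool and 196 in the flox control pool, and 1419805_s_at 172 in the knockout pool and 165 in the flox control pool, ratios of -0.024 and 0.062. All 4 lay within 1 error SD of 0, with 2 above it and 2 below, and a ratio as high as that of the brightest was reached by 32.4% of measured genes.

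**Figure D2:**
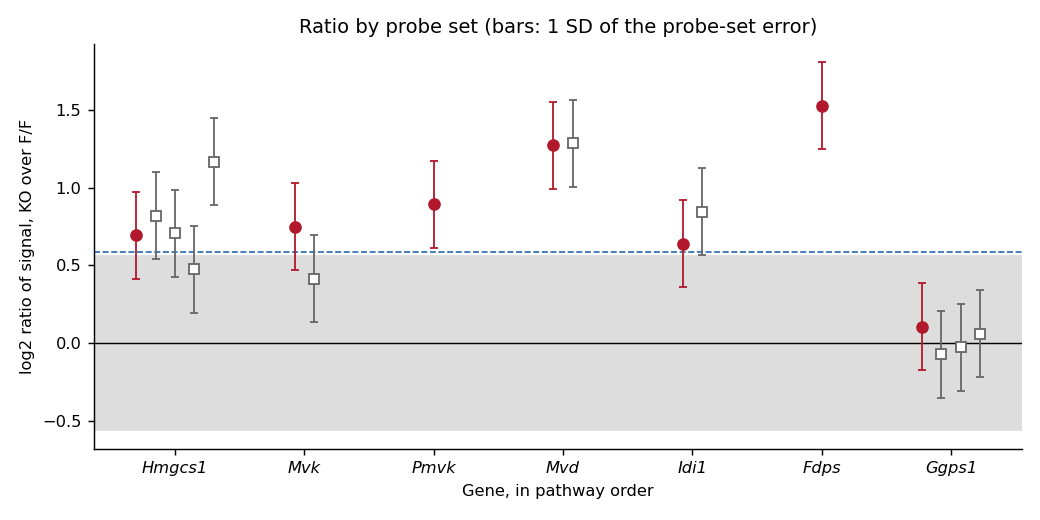
Log2 ratio of signal, knockout over flox control, for the 17 probe sets above the floor, genes in pathway order. Red circles are the brightest probe set of each gene, open squares the others, error bars 1 SD of the probe-set error (0.28), the shaded band 2 of these SDs on either side of 0, and the dashed line 1.5-fold. Mvd and Fdps stand highest (1.27 and 1.52 by their brightest probe sets) and all 4 Ggps1 probe sets lie close to 0.

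By probe set, 15 of the 17 above the floor were higher in the knockout pool and 11 were at least 1.5-fold higher. Of the 24011 non-control probe sets above the floor 45.6% and 5.3% were. The 2 lower ones of the 17 were both of Ggps1. These 17 read the same 7 genes again, 5 of them Hmgcs1 and 4 Ggps1, so they are not independent of the counts by gene. The order of the ratios from highest to lowest was Fdps, Mvd, Pmvk, Mvk, Hmgcs1, Idi1 and Ggps1, which is not the order of the steps. None of the 6 neighbouring pairs in this order differed by more than 2 SDs of the error of a difference (0.79 on the log2 scale). Of all 21 pairs, 4 did: Fdps stood above Hmgcs1 (by 0.83), Idi1 (by 0.88) and Ggps1 (by 1.42), and Mvd above Ggps1 (by 1.17). The distance from Idi1 to Ggps1 (0.53) was within this error. Ggps1 is thus set apart from the other 6 genes by the 1.5-fold count, but in size only from Fdps and Mvd.

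**Figure D3:**
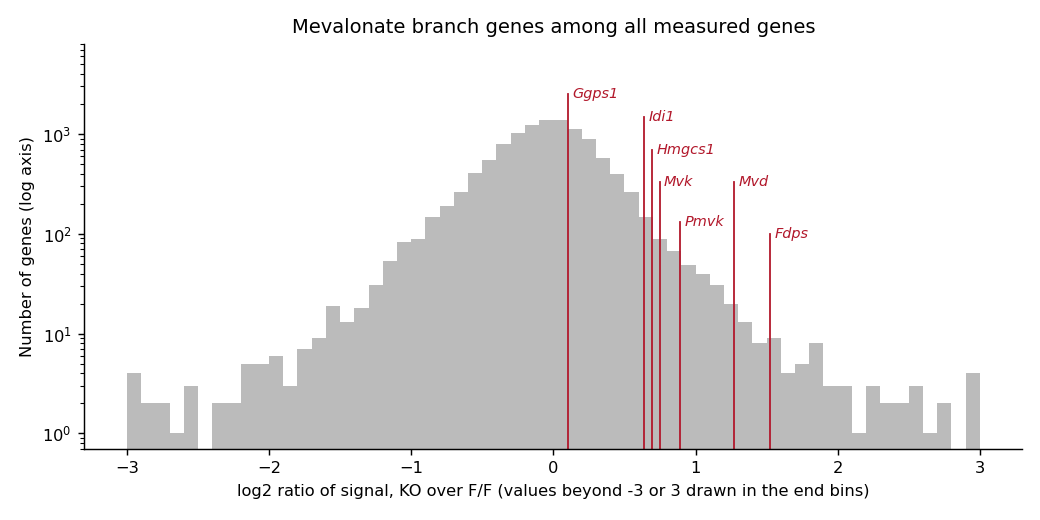
Number of genes (log axis) by log2 ratio of signal, knockout over flox control, for the 11496 measured genes, with the 7 mevalonate branch genes as red lines whose height has no meaning. Ggps1 (0.11) lies within the bulk of the distribution, while the other 6 lie in its upper flank between 0.64 and 1.52.

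The genes around the branch were looked at beside it. Upstream, the 3 genes that supply cytosolic acetyl-CoA were all higher but lay within 1.5-fold. That 0 of 3 passed is near the 4.76% of all measured genes that were that much higher. ATP citrate lyase (Acly) was at 0.15 with signals of 2896 in knockout and 2615 in flox control. The acetyl-CoA synthetase gene Acss2 was also at 0.15, and its other probe sets reached down to -0.24. The citrate carrier gene Slc25a1 was highest at 0.51. This is within 1 SD of the error of a difference (0.39) of Idi1 at 0.64, so the values mark no edge of the branch. None of the 3 measured genes of mitochondrial ketone metabolism, which use the same intermediates, reached 1.5-fold by its brightest probe set. This too is near the shares over all measured genes, 4.76% higher and 8.74% lower. Acat1, the mitochondrial acetoacetyl-CoA thiolase, was lowest at -0.39 (8182 in knockout, 10746 in flox control). Oxct1, which activates acetoacetate for oxidation, was highest at 0.58, although its probe sets ran from 0.34 to 1.14.

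Downstream, genes that turn farnesyl diphosphate into sterol and genes that use it otherwise were taken as separate lists. Each of the 11 measured genes from squalene synthase to cholesterol passed 1.5-fold in the same direction by its brightest probe set, against 4.76% of all genes, with a median ratio of 0.93 against -0.042 over all genes. They ran from 0.64 for Dhcr7, a late reductase, to 1.75 for lanosterol synthase (Lss), whose probe sets ran from 0.70 to 1.75, and 8 of the 11 exceeded the median of the mevalonate branch. The others were Sqle (1.04), Cyp51 (1.27), Tm7sf2 (0.96), Msmo1 (1.08), Nsdhl (0.93), Hsd17b7 (0.90), Ebp (0.71) and Sc5d (0.64, with probe sets down to 0.32), beside squalene synthase. Squalene synthase (Fdft1), which draws directly on the Fdps product, was at 0.93, with signals of 6368 in knockout and 3335 in flox control. Of the 12 measured genes that use the isoprenoids for other ends, 0 reached 1.5-fold by the brightest probe set, which is near the 4.76% of all genes that were that much higher. Of these genes 8 were higher and 4 lower, against 44.9% higher over all genes, with a median of 0.12. The lowest was Coq2, which attaches the ubiquinone tail (-0.21, 1935 in knockout and 2241 in flox control). The highest was Dhdds, a subunit of the dolichol chain synthase (0.36), whose probe sets ran from 0.30 to 1.01. Its partner subunit Nus1 was at 0.22, with probe sets from -0.36 to 0.94. The farnesyltransferase subunits Fnta (0.051) and Fntb (-0.060) and the geranylgeranyl transferase subunit Pggt1b (-0.077) lay within 1 error SD of 0, as did Ggps1. The lowest squalene and sterol gene stood 0.28 above the highest isoprenoid user, so the lists did not overlap by brightest probe set, but a gap of that size is within the probe-set error.

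Of 6 measured genes of SREBP2 and sterol sensing, 1 was at least 1.5-fold higher, against 4.76% of all genes. It was Insig1, at 1.36 (6156 in knockout, 2403 in flox control). Insig1 encodes a protein that holds SREBP in the endoplasmic reticulum and is itself an SREBP target. Srebf2, the gene of SREBP2, was at 0.46 (646 in knockout, 471 in flox control), and Scap, its escort protein, at 0.30. The site-1 protease gene Mbtps1 was lowest, at -0.11, with probe sets from -0.66 to 0.12.

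**Figure D4:**
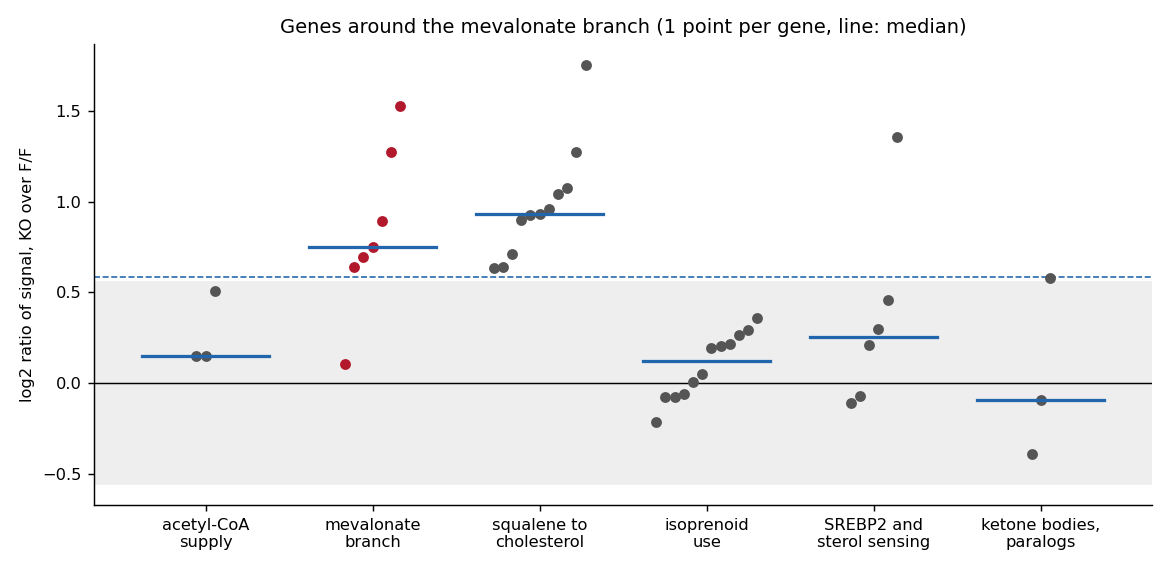
Log2 ratio of signal, knockout over flox control, of each measured gene (point, brightest probe set) in 6 lists around the pathway, with the median of each list as a blue line, the dashed line at 1.5-fold and the shaded band at 2 SDs of the probe-set error on either side of 0. The mevalonate branch (red, median 0.75) and the squalene to cholesterol genes (median 0.93) stand above the other 4 lists, whose medians lie between -0.092 and 0.26.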

How the data were processed

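The data are 2 Affymetrix mouse arrays with 45101 probe sets, 1 of pooled knockout and 1 of pooled flox control RNA. The authors deposited linear signal intensities that the submitters' processing notes credit to MAS5 (version and options: not given in the sources used here). After trimming 2% at each end both columns averaged 500.003, so they had been scaled alike and were used as deposited. The submitters' text names the smaller A version of the array, whereas the identifiers match the annotation of the full one. Probe sets were named from the platform annotation where it gave 1 symbol (34945 probe sets, against 932 with several and 9160 with none), updated by Entrez identifier to RefSeq GRCm38.p6. The 64 control probe sets were set aside.

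With control probe sets left out, the 50th percentile of both arrays together (92.9) served as the floor, lower signals were raised to it, and the log2 ratio was taken as knockout over flox control. No detection calls were used. Each gene is represented by the probe set with the highest mean log2 signal. The error SD is that of the difference between the ratios of a gene's 2 brightest probe sets, divided by the square root of 2. The code was tested on simulated data. With 1 array per group there is no test and no p-value. All probe sets of the chosen genes are given. Of the other pathway lists, the highest and lowest genes, those past 1.5-fold and a few others by role are named, and the latter were chosen after their values were seen. The genes and lists were chosen with earlier results of these data known. Suffixes _s_at and _x_at mark probe sets that may also bind related transcripts. Promoters are from RefSeq (GRCm38.p6), searched on both strands. Python 3.11.15, pandas 2.3.3 and statsmodels 0.14.6 were used.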

Additional observations from a re-analysis of the deposited data

How the results depend on the processing

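No paired analysis was possible because there is 1 array per genotype, so no array could be left out either. Over 11 alternatives in scaling, floor and choice of probe set, the median ratio of the measured genes of the branch ran from 0.69 to 0.84 and 5 or 6 of them were at least 1.5-fold higher. The count was 5 with the mean of all probe sets and with the second brightest one, where Mvk fell to 0.41, and without _s_at, _x_at and _a_at probe sets, where Pmvk had none left. Ggps1 ran from -0.070 to 0.19 and changed sign with the second brightest probe set and without those suffixes, and Fdps ran from 1.48 to 1.60. The share of all genes at least 1.5-fold higher depended on the floor: 8.22% passed with a floor at the 30th percentile, 14.2% without a floor and 2.94% with a pseudocount in its place. The probe-set error was 0.89 without a floor, since dim probe sets then enter. Of the squalene to cholesterol genes 10 passed 1.5-fold with the mean of all probe sets and with the second brightest one. Without those suffixes 10 passed as well, but Msmo1 then had no probe set above the floor left. In the other settings 11 passed. The median of the squalene to cholesterol genes ran from 0.89 to 1.01 and that of the isoprenoid users from 0.012 to 0.20. Of the ketone genes 1, Oxct1, passed 1.5-fold with median scaling and with the mean of all probe sets.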

Other observations

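The genes next to the branch genes on the chromosome (nearest protein-coding gene on each side, RefSeq GRCm38.p6) were looked at after the values above were known. Of 16 such neighbours 12 were measured, and their median ratio was 0.062. Of these, 1 was at least 1.5-fold higher in the knockout pool and 0 were at least 1.5-fold lower. Both counts are near the shares over all measured genes, 4.76% and 8.74%. The higher one was Mmab, a cobalamin adenosyltransferase gene that lies head to head with Mvk on the opposite strand. Mmab had a signal of 260 in the knockout pool and 148 in the flox control pool, a ratio of 0.81, close to the 0.75 of Mvk. The stretch printed for Mvk, with its 5 CCAAT boxes and 1 GC box, lies between both genes. Ggps1 also has a head-to-head neighbour, Arid4b, a chromatin protein gene, which was at -0.34 (988 in knockout, 1248 in flox control), while Ggps1 was at 0.11. Other neighbours of higher genes ranged from Ccl28, next to Hmgcs1, at -0.58 to Pklr, next to Fdps, at 0.57. Each is a value of 1 array per genotype, and no cause was tested.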
